A study of Mus musculus with 225 samples.

Results

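*Msx1* and *Msx2* were followed in single cells of the mouse forelimb at E12.5. Both members were found by their names in the deposited tables, as 2 of 23165 gene rows with read counts and 2 of 10948 genes with normalized values. The cells came from the autopod, the presumptive hand, and the zeugopod, the presumptive forearm, of forelimbs carrying the *Hoxd11::GFP* allele in heterozygous form on a C57Bl6CBAF1 background. In this allele a tau-GFP sequence is knocked into *Hoxd11* and inactivates that copy, so cells of both tissues had 1 intact copy, and only the brightest 20% of GFP cells were taken. Cells of 8 forelimbs of littermates were pooled before each cell was lysed in its own chamber of a Fluidigm C1 chip. The quality filter of the authors left out 26 captured cells and kept 199, of which 76 were autopod cells (59 in run NXT0072 and 17 in run NXT0143) and the others zeugopod cells (58 in run NXT0142 and 65 in run NXT0143).

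*Msx1* and *Msx2* encode closely related homeodomain transcription factors that act mostly as repressors. Both genes respond to bone morphogenetic protein (BMP) signals, in which ligands bind paired receptors, Smad proteins carry the signal to the nucleus, and secreted or intracellular inhibitors limit it. In the limb bud they are known for expression in distal and interdigital mesenchyme, and *Msx2* also for expression in the apical ectodermal ridge, the epithelium at the limb tip.

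*Msx1* (ENSMUSG00000048450) lies on the minus strand of chromosome 5, from 37820485 to 37824583 in GRCm38, and *Msx2* (ENSMUSG00000021469) on the minus strand of chromosome 13, from 53466884 to 53473074. Each gene has a coding transcript of 2 exons (*Msx1-201*, 1935 bases, and *Msx2-201*, 2453 bases) and a transcript with a retained intron. To see whether reads of one gene could be counted for the other, the coding transcripts were compared. The longest exact run that they share is 22 bases and lies in exon 2, in the homeobox, the part that encodes the DNA-binding homeodomain. It is shown here in capitals with 39 bases on either side, 5′ to 3′ on the strand of the gene, from chr5:37821550-37821649 and chr13:53468443-53468542 of GRCm38.
Msx1: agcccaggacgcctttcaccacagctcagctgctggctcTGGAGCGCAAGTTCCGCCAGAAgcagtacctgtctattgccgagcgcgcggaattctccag
Msx2: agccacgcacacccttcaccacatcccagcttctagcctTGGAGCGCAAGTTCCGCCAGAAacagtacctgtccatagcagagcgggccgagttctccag
These stretches had 82 of 100 bases in common. None of the 1906 words of 30 bases in *Msx1-201* occurred in *Msx2-201*, so a read of that length without errors could be told apart between the members even within the homeobox. Another limit is on the *Msx1* locus itself. RefSeq lists an antisense RNA, *Msx1os*, from 37820564 to 37822751 on chromosome 5, across the 3′ part of *Msx1*. It has no row in the count table and the library kit does not keep the strand, so its reads cannot be told apart from those of *Msx1*.

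The bases before the start of each gene are shown because the members varied together from cell to cell. They come from the promoter table of RefSeq (GRCm38.p6), in which both genes were matched. Capitals mark the letters CCAAT on either strand (ATTGG on the other) and TAATTA, a sequence that many homeodomains bind. The *Msx1* line holds the 250 bases at chr5:37824586-37824835. The 250 bases before the RefSeq start of *Msx2* all lie in the first exon of *Msx2-201* in the GENCODE annotation, and only 30 bases around each match are given, at chr13:53472950-53472979 and chr13:53472887-53472916.
Msx1: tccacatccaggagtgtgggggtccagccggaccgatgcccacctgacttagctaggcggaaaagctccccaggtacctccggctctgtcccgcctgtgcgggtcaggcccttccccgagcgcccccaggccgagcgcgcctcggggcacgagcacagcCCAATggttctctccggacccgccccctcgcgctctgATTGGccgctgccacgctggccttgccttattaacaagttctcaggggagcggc
Msx2, upstream match: tgactgctcctgTAATTAactcctaattta
Msx2, downstream match: ctccagggagagCCAATcggtggcgagcgt
The first of these motifs, CCAAT, was present before both genes and in 33.8% of the 32851 promoters of this length in the table. TAATTA was present before *Msx2* and in 4.84% of all promoters. The letters GGCGCC (9.59% of promoters), CAGAC (42.2%) and TATAAA (12.4%) occurred before neither gene. The windows held 68% and 61.6% G and C, where the median promoter held 52.4%. A match of letters describes the sequence and is not a site of binding.

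Depth varied widely, with 187344 to 9437447 reads on genes in single autopod cells and 186271 to 6801278 in single zeugopod cells. The medians by tissue and run lay between 2641867 reads, in autopod cells of NXT0143, and 4048526, in zeugopod cells of NXT0142. The labels give a tissue and a run for each cell and name no plate. Each combination of tissue and run, 4 in all, is called a plate here, and whether each was prepared apart is not known. If so, an effect of the preparation cannot be told apart from tissue even within NXT0143. The labels name no embryo per cell. Each tissue is therefore 1 pooled sample, cells were not used as replicates, and no p-value was computed. Intervals for shares of cells are exact binomial (Clopper-Pearson) 95% intervals and cover counting error only, since reads carry no molecular identifiers.

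*Msx1* was found in most autopod cells and was nearly absent from zeugopod cells. A gene was counted in a cell when it had at least 5 reads. *Msx1* reached this in 38 of 59 autopod cells of NXT0072 (64.4%, interval 50.9 to 76.4%) and in 8 of 17 of NXT0143 (47.1%, interval 23 to 72.2%). In the zeugopod it was reached in 2 of 58 cells of NXT0142 (3.45%, interval 0.42 to 11.9%) and in 0 of 65 cells of NXT0143 (interval 0 to 5.52%, where 3 cells would make 4.62%). These intervals cover counting error only and are wide in the 17 cells of NXT0143. How many of all genes differ as much in their shares was not counted.

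*Msx2* was found in fewer autopod cells. It had at least 5 reads in 29 of 59 cells of NXT0072 (49.2%, interval 35.9 to 62.5%) and in 6 of 17 cells of NXT0143 (35.3%, interval 14.2 to 61.7%). In the zeugopod 1 of 58 cells of NXT0142 (1.72%, interval 0.0436 to 9.24%) and 1 of 65 cells of NXT0143 (1.54%, interval 0.0389 to 8.28%) reached 5 reads. Both genes were read in the same cells, of which 12 had *Msx1* only and 3 *Msx2* only in NXT0072, and 3 and 1 in NXT0143. *Msx3*, the third member of the family and a gene of the neural tube, had 2 reads in the 199 cells, both in 1 autopod cell.

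Few autopod cells lay near the threshold. Of the cells of NXT0072, 3 had between 1 and 4 reads of *Msx1* and 5 had so few of *Msx2*. In NXT0143 these numbers were 0 and 1. With each cell thinned at random to 500000 reads on genes, at least 1 read of *Msx1* was left in 44 of 72 autopod cells (61.1%) and of *Msx2* in 34 of 72 (47.2%), against 46 of 76 (60.5%) and 35 of 76 (46.1%) at 5 reads before thinning. In the zeugopod each gene was left in 2 cells (1.68%). The 26 captured cells that did not pass the quality filter had 4 reads of *Msx1*, all in 1 cell, and 0 of *Msx2*.

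The levels ranged widely among autopod cells. They are given as the normalized values of the authors, reads divided by a spike-in size factor, rounded to a whole number, raised by 1 and divided by gene length in kb (3.1 kb for *Msx1* and 3.282 kb for *Msx2*). A cell without reads therefore sits at a floor of 0.3226 for *Msx1* and 0.3047 for *Msx2*. The normalized value of *Msx1* ran from the floor to 14667 in NXT0072, with a median of 128.4, and from the floor to 2528 in NXT0143, where the median cell was at the floor. Both zeugopod plates had the median at the floor, with highest values of 58.39 in NXT0142 and 0.6452 in NXT0143.

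For *Msx2* the normalized value ran from the floor to 3646 in NXT0072, with a median of 0.9141, and from the floor to 944.9 in NXT0143, with the median at the floor. In the zeugopod the highest values were 193.2 in NXT0142 and 15.23 in NXT0143. A few cells made up much of each total. In NXT0072 the highest cell held 22% of the summed normalized values of *Msx1*, and the highest cell for *Msx2* held 27%.

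**Figure D1:**
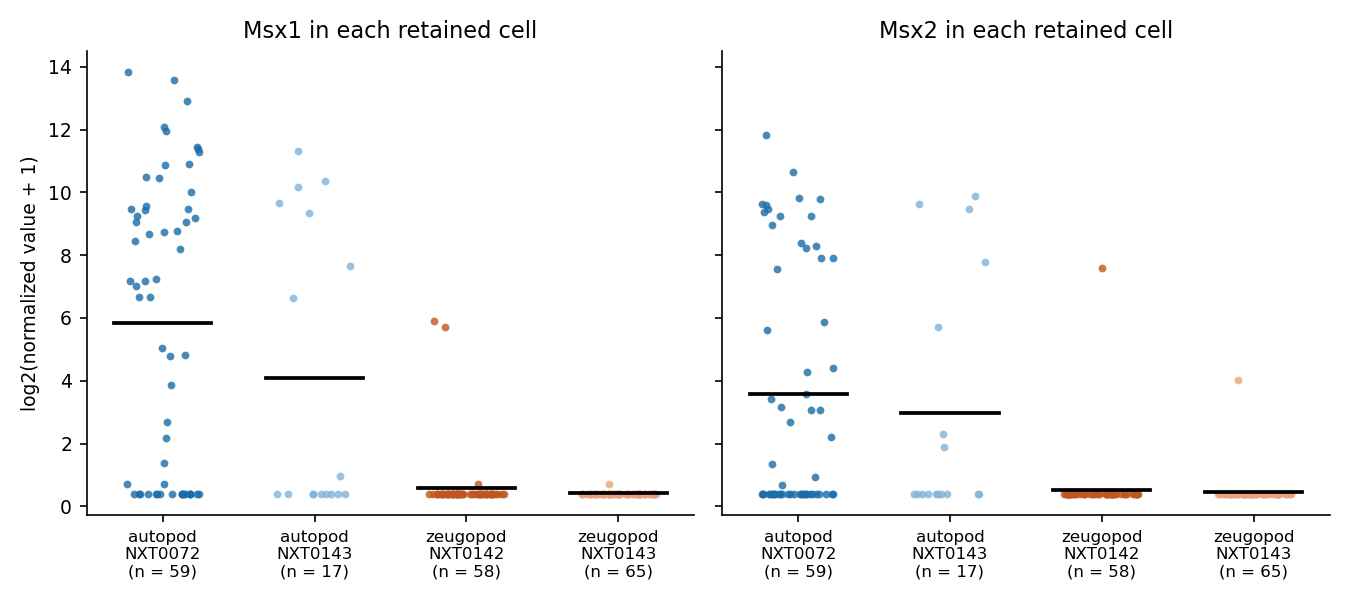
Normalized level of *Msx1* (left) and *Msx2* (right) on the log2(normalized value + 1) scale, with 1 point for each of the 199 retained cells by tissue and run and a black line at the mean. Autopod cells spread from the floor to a normalized value of 14667 for *Msx1* and 3646 for *Msx2*, while 2 zeugopod cells for each gene stand well above the floor.

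Among the cells that reached 5 reads, the median normalized value of *Msx1* was 559.5 in NXT0072 (38 cells, lowest 3.548 and highest 14667) and 725.6 in NXT0143 (8 cells, 0.9677 to 2528). That of *Msx2* was 240.7 in NXT0072 (29 cells, 0.9141 to 3646) and 464.8 in NXT0143 (6 cells, 3.961 to 944.9). The values of NXT0143 thus lay within the range of NXT0072 or just below its lowest value, and the lower mean of NXT0143 went with a smaller share of cells holding the genes.

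The tissues were then compared by the mean of log2(normalized value + 1) over cells. The mean of *Msx1* was 5.45 (SD over cells 4.63) in 76 autopod cells and 0.50 (SD 0.69) in the zeugopod cells, a difference of 4.95. Of the 10948 genes, 310 were higher in the autopod by at least 1 on this scale (2.83%) and 685 were lower by as much (6.26%), and *Msx1* had the second largest difference, at rank 2. Within NXT0143 the mean was 4.10 in 17 autopod cells and 0.41 in 65 zeugopod cells, a difference of 3.69 at rank 12, where 10.9% of genes were higher and 5.17% lower by at least 1. Between the autopod cells of NXT0072 and the zeugopod cells of NXT0142 it was 5.24 at rank 2, where 3.27% of genes were higher and 12.3% lower.

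*Msx2* differed less on the same scale. Its mean was 3.44 (SD over cells 3.85) in the autopod and 0.47 (SD 0.73) in the zeugopod, a difference of 2.97 at rank 8 of 10948 genes. Within NXT0143 the difference was 2.53 at rank 79, and between NXT0072 and NXT0142 it was 3.07 at rank 8. Both members were therefore past 1 in each comparison of plates. These comparisons share no cells but do share the pooled litter of embryos. The differences rest on cells at the floor and cells well above it, so their size depends on the number added before the logarithm, and with 10 in place of 1 they were 3.30 for *Msx1* and 1.79 for *Msx2*.

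In the autopod *Msx2* was found mostly in cells that also had *Msx1*. In NXT0072, 26 cells had at least 5 reads of both genes, 12 of *Msx1* only, 3 of *Msx2* only and 18 of neither. *Msx2* was thus present in 68.4% of the 38 cells with *Msx1* (interval 51.3 to 82.5%) and in 14.3% of the 21 cells without it (interval 3.05 to 36.3%). Read the other way, 89.7% of the 29 cells with *Msx2* had *Msx1* (interval 72.6 to 97.8%). The product of the shares of each gene would place both in 18.7 of the 59 cells.

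In the smaller plate the largest class was that of cells with neither gene. In NXT0143, 5 cells had both genes, 3 had *Msx1* only, 1 had *Msx2* only and 8 had neither, where the product of the shares gives 2.82 cells with both. *Msx2* was present in 62.5% of the 8 cells with *Msx1* (interval 24.5 to 91.5%) and in 11.1% of the 9 cells without it (interval 0.281 to 48.2%), and these intervals overlap. In the zeugopod 0 cells of either plate had both genes at 5 reads.

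**Figure D2:**
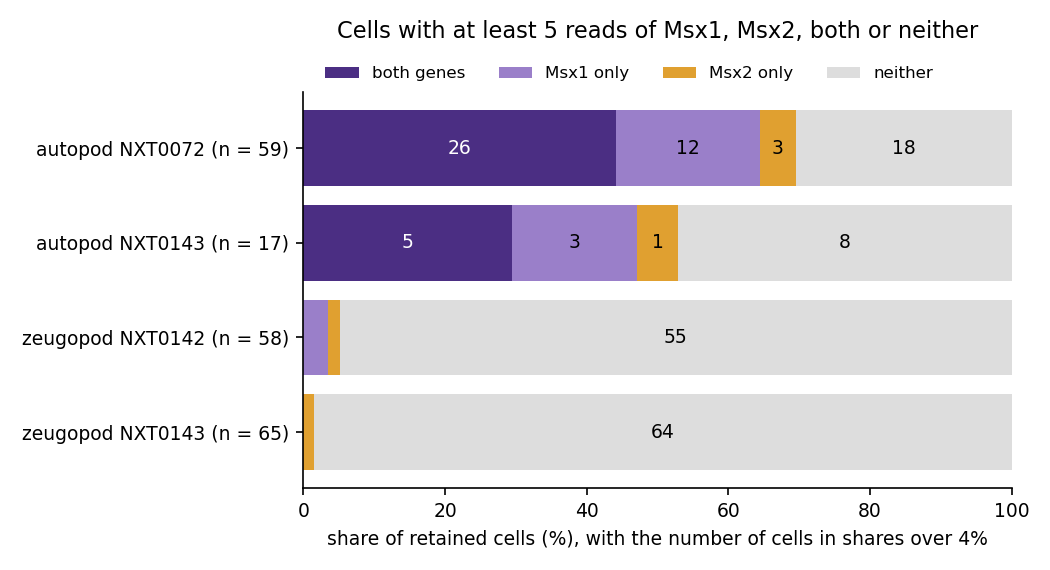
Share of retained cells (%) with at least 5 reads of both genes, of *Msx1* only, of *Msx2* only or of neither, for each tissue and run, with the number of cells printed in each part over 4%. Cells with both genes make up 26 of 59 and 5 of 17 autopod cells and 0 of 58 and 0 of 65 zeugopod cells.

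The 4 autopod cells with *Msx2* only had modest to moderate levels of it. In NXT0072 the normalized values of *Msx2* in its 3 cells were between 5.484 and 57.28 with a median of 7.313, below the median of 306.1 in the 26 cells with both genes. The single such cell of NXT0143 had 216.9. Cells with *Msx1* only were not confined to low levels of *Msx1*. In the 12 cells of NXT0072 its median was 420.6 (5.484 to 1439), against 701.5 (3.548 to 14667) in cells with both genes.

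Cells with both genes also had more genes detected. In NXT0072 the median number of genes with at least 1 read was 3814 in cells with both members, 3234 with *Msx1* only, 3455 with *Msx2* only and 2714.5 with neither. The ranges overlapped, at 2156 to 6162 genes for both and 1992 to 5833 for neither. In NXT0143 the medians in the same order were 4365, 3763, 4523 and 3490. Across the 59 cells of NXT0072 the number of genes detected had a rank correlation of 0.393 with *Msx1* and 0.380 with *Msx2*. Coefficients are therefore given below also as partial coefficients, given the number of genes detected.

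Where both members were present, *Msx1* was usually the higher per length. The normalized value of *Msx1* exceeded that of *Msx2* in 23 of 26 cells of NXT0072 and in 4 of 5 cells of NXT0143. The median ratio over the 31 cells was 3.77-fold, or 1.92 on the log2 scale, and single cells ranged from -3.62 to 8.18. The ratio was thus not fixed, and 4 cells had more *Msx2* than *Msx1*.

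The levels of the members went together across cells. In the 59 autopod cells of NXT0072 their rank correlation (Spearman) was 0.686, and 0.631 given the number of genes detected. In the 17 cells of NXT0143 these were 0.762 and 0.716. Leaving out the cell with the highest value of each gene gave 0.662 over 57 cells and 0.702 over 16 cells. Scaling the counts to 1000000 reads on genes per cell (CPM) gave 0.627 and 0.789. Cells at the floor for both genes contribute to each of these coefficients, and the cells of a plate may share their library preparation. The coefficients are therefore given as a description.

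**Figure D3:**
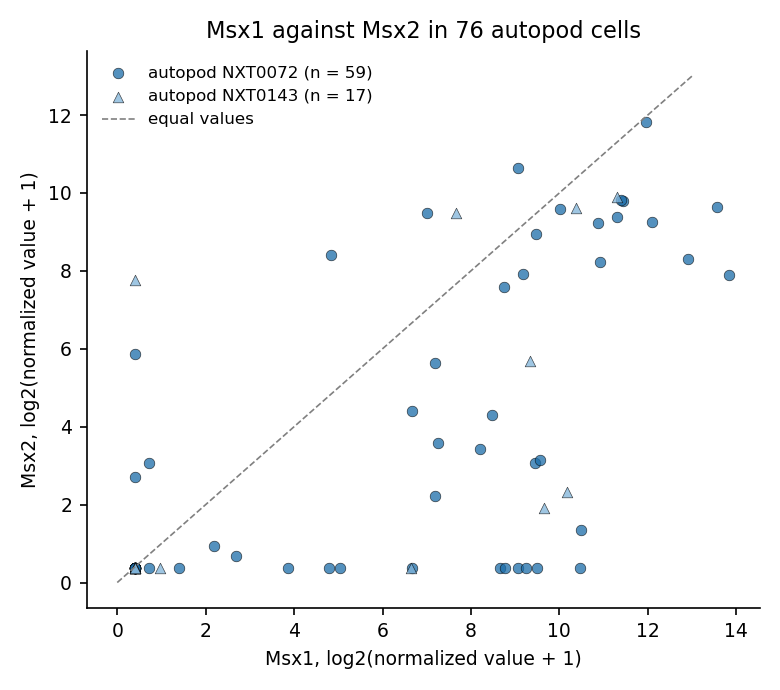
*Msx2* against *Msx1* in the 76 retained autopod cells, both as log2(normalized value + 1), with circles for NXT0072, triangles for NXT0143 and a dashed line of equal values. Most cells with both genes lie below the line, and cells with *Msx1* alone lie along the bottom over much of the range of *Msx1*.

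The zeugopod cells with reads of either gene were few. Z_77 had 149 reads of *Msx1* and 0 of *Msx2*, and Z_107 had 137 and 0. Z_100 had 641 reads of *Msx2* and 0 of *Msx1*, and Z_67 had 31 of *Msx2* and 1 of *Msx1*. Z_95 had 1 read of *Msx1*. None of the 5 cells had more than 1 read of *Hoxd13*, the autopod *Hoxd* gene, or any of *Hoxa13*, and all had *Sox9*, the early cartilage regulator, at 1551 to 19483 reads. *Shox2*, a gene of the proximal limb, had 288 reads in Z_77, 400 in Z_100 and 1055 in Z_67, but 0 in Z_95 and 2 in Z_107.

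Within the autopod the genes most like each member were sought. Likeness was the smaller of the partial rank coefficients in NXT0072 and NXT0143, among the genes found by the 5-read rule in 25% or more of the autopod cells, and each member was compared with 4031 others. *Msx2* ranked 1 for *Msx1* and *Msx1* ranked 1 for *Msx2*, also with plain coefficients and with CPM. Within NXT0072 alone the ranks were 2 and 1, and within the 17 cells of NXT0143 they were 7 and 10. For comparison, percentiles 5 and 95 of the partial coefficients of all these genes with *Msx1* were -0.213 and 0.259 in NXT0072, and -0.407 and 0.466 in the smaller NXT0143, where the spread was wider.

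After *Msx2*, the genes most like *Msx1* were *Lhx9*, a LIM homeobox gene of the distal limb bud (partial coefficients 0.658 in NXT0072 and 0.510 in NXT0143), *Dlx5*, a homeobox gene of the ridge and of skeletal cells (0.574 and 0.450), and *Dach1*, a transcriptional cofactor (0.444 and 0.812). *Kif26b*, *Fbxo9*, *Gid4*, *Pdcd11*, *Hoxa13* and *Zcchc14* followed, with coefficients between 0.354 and 0.496. Of the 10 genes, *Msx2*, *Lhx9*, *Dach1* and *Hoxa13* were higher in the autopod by at least 1 in both comparisons of plates. The 10 genes had to be found in autopod cells only, which favours genes of that tissue, so this is no separate support. Of all 10948 genes, 10.9% were higher by at least 1 within NXT0143 and 3.27% between NXT0072 and NXT0142. The share past 1 in both was not counted. On that scale *Dlx5* was at 2.48 between NXT0072 and NXT0142 but at 0.17 within NXT0143, where 2 of 17 autopod cells held it, so that its coefficient in that plate rests on those cells.

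After *Msx1*, the genes most like *Msx2* were *Dach1* (0.454 and 0.678) and *Lhx9* (0.592 and 0.415), which are the 2 genes shared by both sets of 10. *Metap2*, *Slc1a3*, *Mtss1*, *Smad7*, *Snora31*, *Sfswap* and *Crebbp* followed, with coefficients between 0.368 and 0.608. *Smad7*, an inhibitory Smad that is induced by BMP and TGF-beta signals, had 0.388 and 0.590. *Crebbp* gave 0.103 with CPM in NXT0143.

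The overlap in single cells describes the same genes at the level of presence. They were picked in these same cells, so the overlap is no separate support. *Lhx9* had at least 5 reads in 38 of the 46 autopod cells with *Msx1* (82.6%) and in 9 of the 30 without (30%). *Dach1* was found in 30 of 46 cells with *Msx1* (65.2%) and in 6 of 30 without (20%). Nearly all cells with *Dlx5* had *Msx1*, 25 of 26 (96.2%), although only 54.3% of the cells with *Msx1* had *Dlx5*. For *Msx2*, *Lhx9* was found in 31 of 35 cells with it (88.6%) and in 16 of 41 without (39%), and *Dach1* in 27 of 35 (77.1%) and 9 of 41 (22%).

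At the other end stood genes with negative coefficients in both plates. The lowest likeness to *Msx1* was that of *Ebf3* (-0.465 and -0.568), *Sulf1* (-0.431 and -0.484), *Ebf1* (-0.431 and -0.637), *Foxc1* (-0.412 and -0.535) and *B4galt5* (-0.362 and -0.550). *Ebf1* and *Ebf3* encode early B-cell factor transcription factors that are also used by connective tissue, *Foxc1* a forkhead factor, and *Sulf1* an enzyme that trims heparan sulfate. *Ebf1* had at least 5 reads in 6 of 46 cells with *Msx1* (13%) and in 23 of 30 without (76.7%), and *Foxc1* in 6 of 46 (13%) and 16 of 30 (53.3%). Both genes were picked in these same cells, so these shares too are no separate support. For *Msx2* the lowest were *Vcan*, the proteoglycan versican (-0.400 and -0.476), *Slc25a24*, *Kmt2e*, *Ppp2r1b* and *Rnf11*, whose coefficients lay between -0.576 and -0.329.

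**Figure D4:**
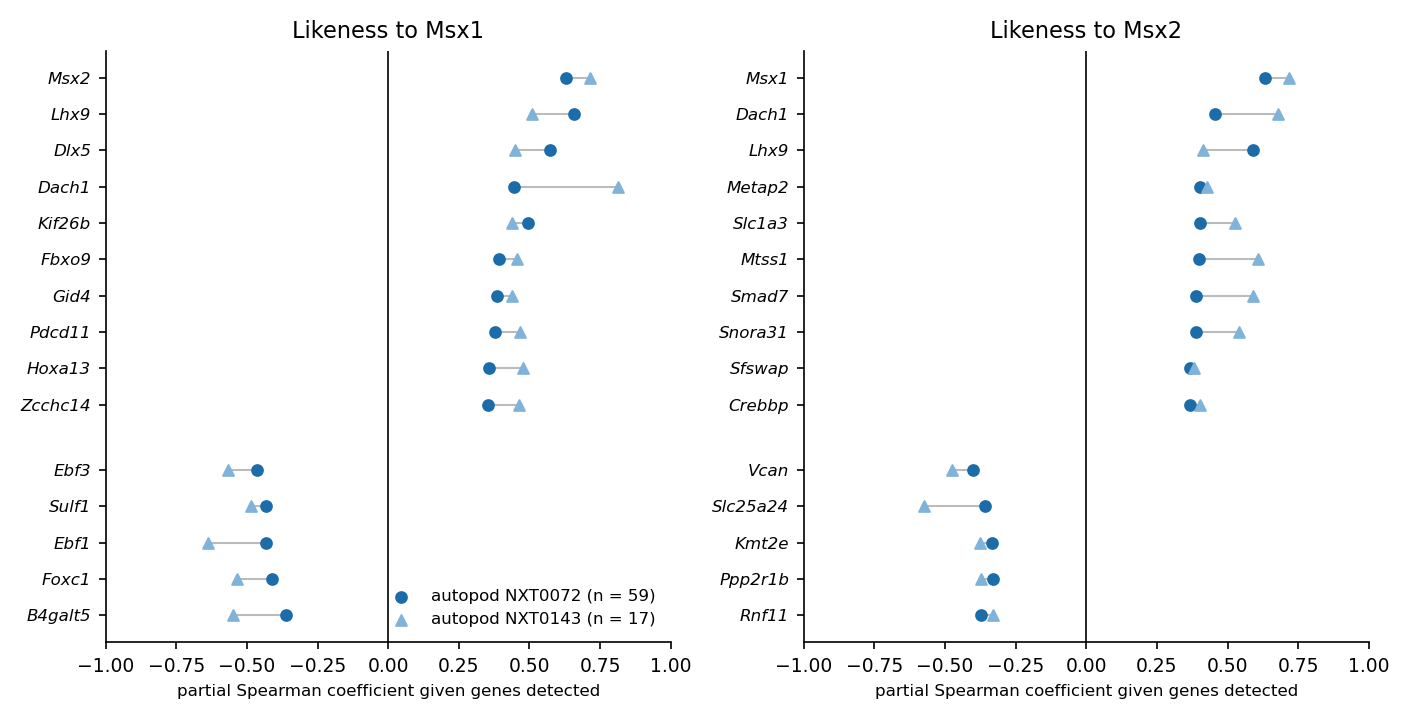
Partial Spearman coefficients, given the number of genes detected, of the 10 genes most like and the 5 least like *Msx1* (left) and *Msx2* (right) in autopod cells of NXT0072 (circles, n = 59) and NXT0143 (triangles, n = 17). *Msx1* and *Msx2* head each other's list, and *Lhx9* and *Dach1* appear in both.

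The other homeobox genes of the limb were not all alike in their relation to the members. Of the 11 genes listed, 8 had normalized values and 4 of them were higher in the autopod by at least 1 over all cells, namely *Lhx9* (3.16), *Prrx2* (2.24), *Lhx2* (2.19) and *Dlx5* (1.87). None was lower. Of all genes, 2.83% were higher and 6.26% lower, and the median of the list was 1.14 against -0.04. Within NXT0143, *Lhx9* (2.34) and *Lhx2* (2.31) were past 1, while *Prrx2* gave 0.22 and *Prrx1*, a general marker of limb mesenchyme, gave -1.42. *Lhx2* was found in 26 of 46 cells with *Msx1* (56.5%) and 7 of 30 without (23.3%). *Prrx1* was found in 34 of 46 (73.9%) and 13 of 30 (43.3%). These shares do not allow for the number of genes detected, and the same shares over all genes were not computed. Partial coefficients with *Msx1* in NXT0072 and NXT0143 were 0.417 and 0.135 for *Lhx2*, and 0.211 and 0.211 for *Prrx1*. Percentile 95 was 0.259 and 0.466, so only *Lhx2* in NXT0072 was above it.

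The distal *Hox* genes differed in how widely they were found in autopod cells. *Hoxd13* had at least 5 reads in 44 of 46 cells with *Msx1* (95.7%) and in 21 of 30 without (70%), and in 34 of 35 cells with *Msx2* (97.1%). Across cells its coefficient with *Msx1* was 0.212 in NXT0072 and -0.049 given the genes detected, but 0.529 and 0.412 in NXT0143. *Hoxa13* was more alike in both plates, with 0.424 and 0.549 before and 0.358 and 0.476 after allowing for the genes detected. It was found in 32 of 46 cells with *Msx1* (69.6%) and 13 of 30 without (43.3%), and *Hoxd12* in 25 of 46 (54.3%) and 12 of 30 (40%). For *Hoxd12* the plates differed. Its shares with and without *Msx1* were 52.6% and 52.4% in NXT0072, but 62.5% of 8 cells and 11.1% of 9 cells in NXT0143. The partial coefficients of *Hoxd12* with *Msx1* were -0.037 in NXT0072 and 0.515 in NXT0143. *Hoxd11*, whose second allele drives the GFP used for sorting, was found in 42 of 46 cells with *Msx1* (91.3%) and 25 of 30 without (83.3%). Of the proximal genes, *Shox2* was found in 0 of the 46 cells with *Msx1* and in 0 of the other autopod cells, so it does not separate them. *Meox2* and *Hoxa11* were each found in 5 autopod cells of NXT0072, 2 of them with *Msx1*, and in 0 of NXT0143. *Meis1* and *Meis2* were found in 0 autopod cells.

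Genes of the interdigit and of cartilage were compared with the members next. *Aldh1a2*, the retinoic acid synthesis enzyme of the interdigit, was found in 12 of 46 cells with *Msx1* (26.1%) and 5 of 30 without (16.7%). With *Msx2* these shares were 28.6% and 17.1%. Its partial coefficients with *Msx1* were 0.040 in NXT0072 and -0.085 in NXT0143. *Rarg*, a retinoic acid receptor, was found more widely, in 48 of 59 and 10 of 17 autopod cells. It was present in 33 of the 38 cells with *Msx1* in NXT0072 and in 5 of the 8 in NXT0143, with partial coefficients of 0.211 and 0.421. Those with *Msx2* were -0.052 and 0.346. *Rarb*, another receptor, was found in 2 of 59 and 5 of 17 cells, with partial coefficients with *Msx1* of -0.165 and -0.105. *Sox9* was present in 43 of 46 cells with *Msx1* (93.5%) and 29 of 30 without (96.7%), and its partial coefficients with *Msx1* were 0.015 and -0.006. *Col2a1*, the main collagen of cartilage, was lower where *Msx1* was higher. It was found in 20 of 46 cells with *Msx1* (43.5%) and 23 of 30 without (76.7%), with partial coefficients of -0.261 and -0.784, and with *Msx2* of -0.194 and -0.539. The other listed cartilage genes did not all share this. Their partial coefficients with *Msx1*, in the same order of plates, were -0.008 and -0.319 for *Col9a1* and -0.002 and -0.27 for *Sox5*. They were -0.054 and -0.435 for *Sox6* and -0.226 and -0.504 for *Acan*. *Col9a1*, *Sox5* and *Sox6* thus stood near 0 in NXT0072.

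The genes of BMP signalling were described by role, from lists of 29 genes of which 25 had normalized values. Over all cells 8 of the 25 were higher in the autopod by at least 1 (against 2.83% of all genes) and 0 were lower (against 6.26%), with a median difference of 0.72 against -0.04 over all genes. Within NXT0143, 9 were higher and 0 lower (against 10.9% and 5.17% of all genes), with a median of 0.39 against 0.06. Between NXT0072 and NXT0142, 8 were higher and 1 lower (against 3.27% and 12.3%), with a median of 0.51 against -0.13. With a pseudocount of 10 in place of 1, 3 genes were higher over all cells.

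None of the 5 measured ligands was past 1 over all cells. *Bmp2* was at 0.81, *Bmp7* at 0.49 and *Gdf5*, the joint ligand, at 0.42, while *Bmp4* was at -0.74 and *Bmp5* at -0.70. Within NXT0143, however, *Gdf5* was at 2.54 and *Bmp7* at 1.43, against -0.38 and 0.11 between NXT0072 and NXT0142. Ligand reads were sparse in the autopod. *Bmp2* was found in 16 of 76 cells, 13 of which had *Msx1*, *Bmp7* in 17 cells, 10 of which had *Msx1*, and *Bmp4* in 9 cells, 7 of which had *Msx1*. Of all 76 autopod cells, 46 (60.5%) had *Msx1*. *Bmp7* was found in 21.7% of the cells with *Msx1* and 23.3% of those without. These shares were 28.3% and 10% for *Bmp2* and 15.2% and 6.67% for *Bmp4*. By plate, those of *Bmp7* were 15.8% and 23.8% in NXT0072, and 50% and 22.2% in NXT0143. Its partial coefficients with *Msx1*, in the same order of plates, were -0.137 and 0.406. They were 0.026 and 0.417 for *Bmp2* and 0.079 and 0.566 for *Bmp4*. In NXT0143 only 2 cells held *Bmp2* and 1 held *Bmp4*. *Gdf5* had partial coefficients of -0.086 and -0.696 with *Msx1* and of -0.306 and -0.493 with *Msx2*. It was found in 7 cells of each autopod plate. Of these, 5 in NXT0072 and 1 in NXT0143 had *Msx1*, and 1 in each plate had *Msx2*.

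Among the 6 receptors *Bmpr2*, the type II receptor, was past 1 over all cells (1.04), and it was at 0.82 within NXT0143 and 1.06 between the other plates. *Bmpr1a* and *Bmpr1b*, the type I receptors, were at 0.72 and 0.82 over all cells, at -0.03 and 1.30 within NXT0143 and at 0.79 and 0.43 between the other plates. *Bmpr1a* was held by 42 of the 59 autopod cells of NXT0072 and by 29 of the 38 with *Msx1*, and *Bmpr2* by 36 and 27. Of the Smad transducers, *Smad4*, the common partner, was at 1.20, *Smad5* at 1.10 and *Smad1* at 0.94. Within NXT0143 *Smad5* was at -0.13 and *Smad4* at 0.39, whereas *Smad1* was at 1.61, so the genes past 1 differed between the comparisons.

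Among the inhibitors *Bambi*, a pseudoreceptor induced by BMP signals, was at 1.55, and *Nog*, the secreted antagonist Noggin, at 1.04 over all cells. Within NXT0143 they were at 0.91 and 0.59, and between NXT0072 and NXT0142 at 1.67 and 1.18. *Smad7* was at 1.93 within NXT0143 and at 0.08 between the other plates. *Bambi* was found in 23 of 46 cells with *Msx1* (50%) and 9 of 30 without (30%). *Bambi* had a partial coefficient of 0.295 with *Msx1* and 0.360 with *Msx2* in NXT0072, but -0.322 and -0.307 in NXT0143, where 5 cells held it. *Smad7* was found in 20 of 35 cells with *Msx2* (57.1%) and 12 of 41 without (29.3%). *Chrdl1*, the antagonist chordin-like 1, was lower by 1.33 between NXT0072 and NXT0142 (-1.33).

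The *Id* genes, which encode inhibitors of helix-loop-helix factors and are direct BMP targets, were higher in the autopod. *Id2* was at 4.42, *Id1* at 3.83 and *Id3* at 2.40 over all cells, and each was past 1 in both comparisons of plates, while *Id4* was at 0.83. They differed from the members in how widely they were found. *Id1* had at least 5 reads in 45 of 46 autopod cells with *Msx1* (97.8%) and in 28 of 30 without (93.3%), and in 45 of 58 and 48 of 65 zeugopod cells, where *Msx1* was nearly absent. Across autopod cells their partial coefficients with *Msx1* were 0.149 for *Id1*, -0.013 for *Id2* and 0.024 for *Id3* in NXT0072, below that of *Msx2*. In NXT0143 they were 0.130, 0.096 and 0.361.

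**Figure D5:**
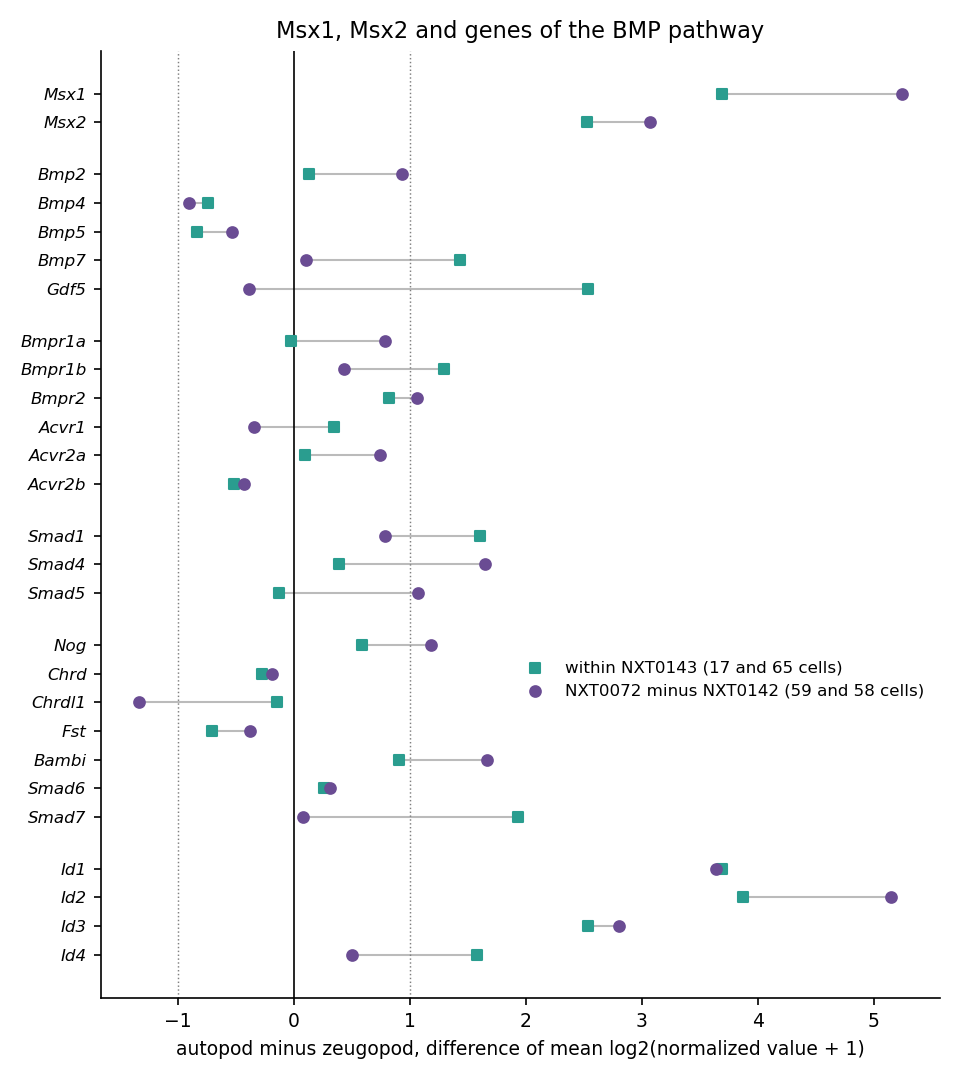
Difference of mean log2(normalized value + 1), autopod minus zeugopod, for *Msx1*, *Msx2* and 25 genes of BMP signalling (ligands, receptors, Smads, inhibitors and *Id* targets from top to bottom) within NXT0143 (squares) and between NXT0072 and NXT0142 (circles), with dotted lines at -1 and 1. The members and *Id1* to *Id3* lie above 1 in both comparisons, while *Gdf5* and *Smad7* differ between them.

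Markers of other cell types were examined beside the members, since *Msx2* is also a gene of the ridge. Of 5 epithelial markers, *Krt14*, *Krt5*, *Cdh1* and *Krt8* had at least 5 reads in 0 of 76 autopod cells and *Epcam* in 2. The summed CPM of the list had a median of 0 on every plate and a highest value of 1442 in NXT0072 and 0 in NXT0143. Of 3 ridge markers, *Fgf8* and *Trp63* were found in 0 autopod cells and *Sp8* in 4, and their summed CPM reached 5.714 in NXT0072 and 4.292 in NXT0143. Among the 35 autopod cells with *Msx2*, 1 held *Epcam* and 1 *Sp8*. The summed CPM of the endothelial, blood (only *Hba-x* of its genes had a row) and macrophage lists was at most 10.65 in any autopod cell, and the muscle list reached 98.26. The defining genes of the epithelium and the ridge were thus at 0 in the autopod cells by this rule, apart from *Epcam* and *Sp8*.

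The cell cycle list (*Mki67*, *Top2a*, *Ccnb1* and *Cdk1*) showed no gene past 1 on log2(normalized value + 1), over all cells or in either comparison of plates. With CPM, *Top2a* was at 1.03 over all cells. *Ccnb1*, the mitotic cyclin, was found in 13 of the 59 autopod cells of NXT0072, of which 11 had *Msx1* and 10 had *Msx2*. *Top2a* was found in 40 cells of that plate, 25 of them with *Msx1*. Of all 59 cells of the plate, 38 (64.4%) had *Msx1* and 29 (49.2%) had *Msx2*. The partial coefficients of *Ccnb1* and *Top2a* with *Msx1* were 0.216 and 0.087 in NXT0072, inside the percentiles given above. In NXT0143 they were 0.572 and 0.541, above percentile 95 of that plate. There only 2 cells held *Ccnb1* and 5 held *Top2a*. *Ccnb1* was found in too few autopod cells to be among the genes behind these percentiles. *Mki67*, a marker of proliferation, had 0.019 in NXT0072 and 0.496 in NXT0143, and *Cdk1* had 0.025 and 0.189. Each was found in 3 cells of NXT0143.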

How the data were processed

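Single cells were captured on Fluidigm C1 chips and amplified with the SMARTer v2 and Nextera XT kits, which keep neither strand nor molecular identifiers. The authors mapped reads uniquely to mm10 with Bowtie2 in local mode and deposited raw counts of reads per gene, without normalization. They also deposited normalized signal, counts divided by spike-in size factors (scran), centred by batch, and by gene length. Of these values, 99.96% were whole multiples of the floor of their gene, within a tolerance of 0.001.

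Here CPM was computed from the counts, with the 92 spike-in rows left out. Differences were taken between means of log2(value + 1), and partial Spearman coefficients were given the number of genes with a read. Cells were thinned without replacement to 500000 reads (seed 42), which left out 8 cells. Python 3.11.15, numpy 2.4.6, scipy 1.17.1, pandas 2.3.3 and matplotlib 3.10.9 were used. On simulated counts without an effect of plate, 200 of 200 changed genes among 4110 had the right direction. This checks the calculation only. Annotation was that of GENCODE M21 (GRCm38).

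The members, the gene lists and the rule for named genes were chosen with earlier results of these data known. Named were the members, *Msx3*, genes of the lists, and per member the 10 most and 5 least alike genes. No test was made, as each tissue is 1 pooled sample. Alternatives were other detection rules, pseudocounts of 0.1 and 10, CPM, thinning, single plates, a filter on low genes and all captured cells.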

Additional observations from a re-analysis of the deposited data

How the results depend on the processing

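No paired analysis was possible because the cell numbers of the tissues are capture positions and no test was made. Of 62 alternative values, 48 stayed close to the value reported, 14 moved further and 0 reversed. Close meant inside the counting interval for a share, within the SD between both comparisons of plates for a difference, or between both autopod plates for the correlation, and within 1.5 times for a count of genes. The share of autopod cells with *Msx1*, 60.5% as reported for both runs, was 47.1% in NXT0143 alone and 47.9% over all captured cells, since none of the cells left out by the authors' filter reached 5 reads. The zeugopod share was 1.63% and 0% in NXT0143. The difference of *Msx1* was 3.30 with a pseudocount of 10 and 3.69 within NXT0143, against 4.95. That of *Msx2* was 3.72 with a pseudocount of 0.1, 1.79 with 10 and 2.53 within NXT0143, against 2.97. The rank correlation of the members moved from 0.686 to 0.627 with CPM, 0.631 given the genes detected and 0.762 in NXT0143. In the BMP lists, 3 genes were higher with a pseudocount of 10, and 1 was lower between NXT0072 and NXT0142 against 0 over all cells. Genes higher in the autopod by at least 1 made up 6.06% of those that passed a filter on low counts, against 2.83% of all. The causes of these shifts were not tested. The 17 autopod cells of NXT0143 limit every value within that run.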
